A study of Mus musculus with 16 samples.

Results

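Genes of prostaglandin synthesis and breakdown were followed in the hypothalamus of obese mice: the phospholipases Pla2g3 and Pla2g4a, the cyclooxygenases Ptgs1 and Ptgs2, the terminal synthases Ptges, Ptges2 and Ptgds, and the degrading dehydrogenase Hpgd. These 8 genes, of 24047 listed, were chosen by name, and Ptgs2, Pla2g3 and Hpgd were known to change with the food ration in these same libraries. Their differences between rationed and freely fed mice are therefore given as a description, with no test. Tests are given for celastrol and for the interaction of celastrol with the ration, which the choice did not name. They share libraries with the ration differences, so they may not be free of the choice for a gene noticed mainly in a single drug arm.

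Bulk RNA sequencing covered 16 libraries of whole hypothalamus, 4 in each of 4 groups of C57BL/6J mice made obese on a high-fat diet. Celastrol, an appetite-lowering triterpenoid of plant origin, was injected into PF+CS and CS mice at a daily dose of 100 µg per kg. The PF+CS group also had its food limited to 0.5 g of the diet daily. The PF group was given DMSO under the same 0.5 g limit. The CS group had celastrol and ate freely, taking 0.8 g daily on average, and the Veh group had DMSO and ate freely. All 4 groups had 1 week of daily DMSO injections and then 4 days of treatment, and tissue followed the last injection by 6 h. PF was meant as a pair-fed control for the CS group, but its ration of 0.5 g lay below the 0.8 g that CS mice ate. The food limit was thus equal in PF+CS and PF, while PF and CS were not matched. No measured intake is given here for PF+CS, PF or Veh. In CS minus Veh the drug and a lower intake cannot be told apart. Celastrol over both feeding arms averages CS minus Veh with PF+CS minus PF, so it carries this limit in part. The interaction contains CS minus Veh as well. The ration step may differ in size between PF+CS over CS and PF over Veh. The labels do not say whether mice shared a cage, litter or collection day, so p-values measure the spread between these samples, which may be partly technical.

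Prostaglandins are made from arachidonic acid. Phospholipases free it from membranes, a cyclooxygenase turns it into an unstable endoperoxide, and terminal synthases convert that into prostaglandins E, D and others. Ptgs2 is the inducible cyclooxygenase and Ptgs1 is the constitutive one. In the hypothalamus prostaglandin E is the known mediator of fever, and prostaglandin D, made by Ptgds in the membranes around the brain, is known for its part in sleep.

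The names of the groups carry a conflict that bears on every result. In the authors' deposited comparison tables, each mean level is an exact combination of 8 of the count columns, and for 3 of 5 tables those columns are not the groups in the table's name. Swapping PF with CS makes all 5 names match. The names here are those of the sample titles and count columns. If the tables are right instead, what is called the ration difference below is the celastrol difference and the reverse, while the interaction keeps its value.

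Libraries held 6008564 to 12880459 counts and 16998 to 17961 genes with a count. Hypothalamic neuron markers (Pomc, Agrp, Oxt, Avp and others, 11 of 11 tested) summed to 658 to 868 CPM, the scaled share of a library's counts. Markers of meningeal fibroblasts, the cells of the brain's membranes, were low in 5 libraries (PF+CS 4, PF 1, PF 2, CS 2 and Veh 3), with a summed level of 71.4 to 83.8 CPM against 209 to 348 CPM in the other 11 libraries. Among other cell types, 7 of 10 oligodendrocyte markers and 4 of 8 microglial markers fell with the ration (edgeR quasi-likelihood test, adjusted p at most 0.05), 3 of 10 endothelial markers rose and 3 fell, and the 2 neutrophil markers that could be tested, of 6 listed, rose. Of the hypothalamic neuron markers Agrp rose and Pomc fell, and of 7 astrocyte markers Aqp4 fell. Of all tested genes 6.92% rose and 4.52% fell with the ration. With celastrol 4 of 11 hypothalamic neuron markers (Pomc, Trh, Oxt and Avp) and 1 of 4 tested choroid plexus markers (Clic6) fell, 3 of 10 endothelial markers rose, and no microglial, oligodendrocyte or neutrophil marker passed, where 1.14% of all tested genes rose and 1.45% fell. Haemoglobin genes were listed at 0 in all libraries. In bulk tissue, fewer cells of a type and less RNA per cell cannot be told apart.

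The cyclooxygenases are given first. Promoters of Ptgs2, Ptgs1 and Hpgd are shown because these genes are the inducible enzyme, its constitutive partner and the opposing enzyme. Each runs from 250 bases before to 50 bases after the RefSeq start (GRCm38.p6), on the plus strand in all 3 cases, at chr1:150099781-150100080 for Ptgs2, chr2:36230176-36230475 for Ptgs1 and chr8:56294302-56294601 for Hpgd. Capitals mark matches to any of 6 motifs searched on both strands: TATAAA, the full cyclic AMP element TGACGTCA, the short element TGACG, the E-box CACGTG, the C/EBP motif TTNNGNAA and the NF-kB consensus.
Ptgs2: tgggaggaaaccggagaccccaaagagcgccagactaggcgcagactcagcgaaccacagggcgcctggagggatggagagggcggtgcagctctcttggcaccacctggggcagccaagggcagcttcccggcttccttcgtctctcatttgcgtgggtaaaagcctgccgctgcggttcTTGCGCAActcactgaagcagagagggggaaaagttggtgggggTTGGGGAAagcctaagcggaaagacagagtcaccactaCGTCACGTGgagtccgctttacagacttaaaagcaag
Ptgs1: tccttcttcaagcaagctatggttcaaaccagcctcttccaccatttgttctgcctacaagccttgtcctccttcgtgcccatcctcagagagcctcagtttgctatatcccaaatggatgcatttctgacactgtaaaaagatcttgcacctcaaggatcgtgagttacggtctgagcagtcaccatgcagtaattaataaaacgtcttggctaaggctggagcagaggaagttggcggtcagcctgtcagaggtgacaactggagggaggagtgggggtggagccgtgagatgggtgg
Hpgd: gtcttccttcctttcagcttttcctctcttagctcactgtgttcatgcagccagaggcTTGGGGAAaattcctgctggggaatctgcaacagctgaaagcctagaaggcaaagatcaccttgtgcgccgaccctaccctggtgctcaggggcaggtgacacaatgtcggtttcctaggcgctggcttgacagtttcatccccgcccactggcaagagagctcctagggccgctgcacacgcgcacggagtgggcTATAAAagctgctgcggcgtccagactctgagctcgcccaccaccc

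The Ptgs2 window held the C/EBP motif at bases -69 to -62, where the letters read the same on both strands, and again at -25 to -18 (the first base of the transcript is 1). It also held the short element on the minus strand at 14 to 18, sharing its last bases with an E-box at 17 to 22. The Ptgs1 window held none of the 6 motifs. The Hpgd window held a C/EBP match at -192 to -185 and TATAAA at 5 to 10, counted from the RefSeq start. The Hpgd gene start given below, chr8:56294585, comes from another annotation and lies downstream of both matches. Counted from that start, TATAAA lies before the transcript. Such matches are common: of 27025 promoters of this length, 40.7% held the C/EBP motif, 21% the short element, 14.2% TATAAA, 8.18% the NF-kB consensus, 7.24% the E-box and 1.88% the full element. A match is a description of letters and does not show that a factor binds.

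Ptgs2 (chr1:150100031-150108227, GRCm38, plus strand, protein-coding) stood higher in every rationed library than in every freely fed one. It was measured at 12.2, 5.48, 5.56 and 8.48 CPM in PF+CS libraries 1 to 4 and at 3.55, 7.92, 11.9 and 6.73 CPM in PF libraries. Free-fed libraries had 2.45, 1.08, 3.14 and 1.45 CPM in CS and 2.47, 1.29, 2.04 and 1.25 CPM in Veh. The lowest rationed library, PF 1, lay just above the highest freely fed one, CS 3, and the spread among rationed libraries was wide. The log2 difference was 2.02 (SE 0.30, edgeR) over both drug arms, 4.07-fold. It was 1.95 (SE 0.41) in PF+CS over CS and 2.10 (SE 0.43) in PF over Veh. Counts behind these values were low, 9 to 116 per library. Neutrophil markers summed to 1.54 to 8.52 CPM in PF+CS and 1.65 to 6.82 CPM in PF. They summed to 0.120 to 1.05 CPM in CS and 0.235 to 2.39 CPM in Veh, so PF+CS and PF overlapped with Veh. In the 5 libraries low in meningeal markers, PF+CS 4, PF 1 and PF 2 among them, they reached at most 1.69 CPM. The part of neutrophils in the Ptgs2 difference was not tested. Ptgs2os, the antisense RNA that starts 67 bases upstream on the other strand, had 5 counts over all libraries.

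Ptgs1 (chr2:36230426-36252272, plus strand, protein-coding) had a ration difference near 0. It was measured at 7.57, 8.10, 9.24 and 10.8 CPM in PF+CS and at 9.12, 9.78, 9.42 and 7.46 CPM in PF. Levels were 6.01, 8.87, 9.51 and 9.36 CPM in CS and 8.70, 10.2, 9.26 and 10.3 CPM in Veh. The groups overlapped, and the ration difference was -0.03 (SE 0.10) on the log2 scale. Microglia are a known site of Ptgs1 in the brain, and their markers summed to 200 to 262 CPM in PF+CS, 207 to 242 CPM in PF, 259 to 266 CPM in CS and 259 to 268 CPM in Veh.

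The ratio of the 2 cyclooxygenases, taken from FPKM, a level corrected for depth and transcript length, was 0.357 to 0.999 in PF+CS and 0.243 to 0.863 in PF. It was 0.0809 to 0.258 in CS and 0.0710 to 0.181 in Veh. Ptgs2 was thus below Ptgs1 in every library, and nearly level with it in PF+CS 1. The ratio of the 4 PF libraries exceeded that of the 4 Veh libraries without overlap, whereas the lowest PF ratio lay below the highest CS ratio. Ptgs2 was known to change with the ration, so this is a description.

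**Figure D1:**
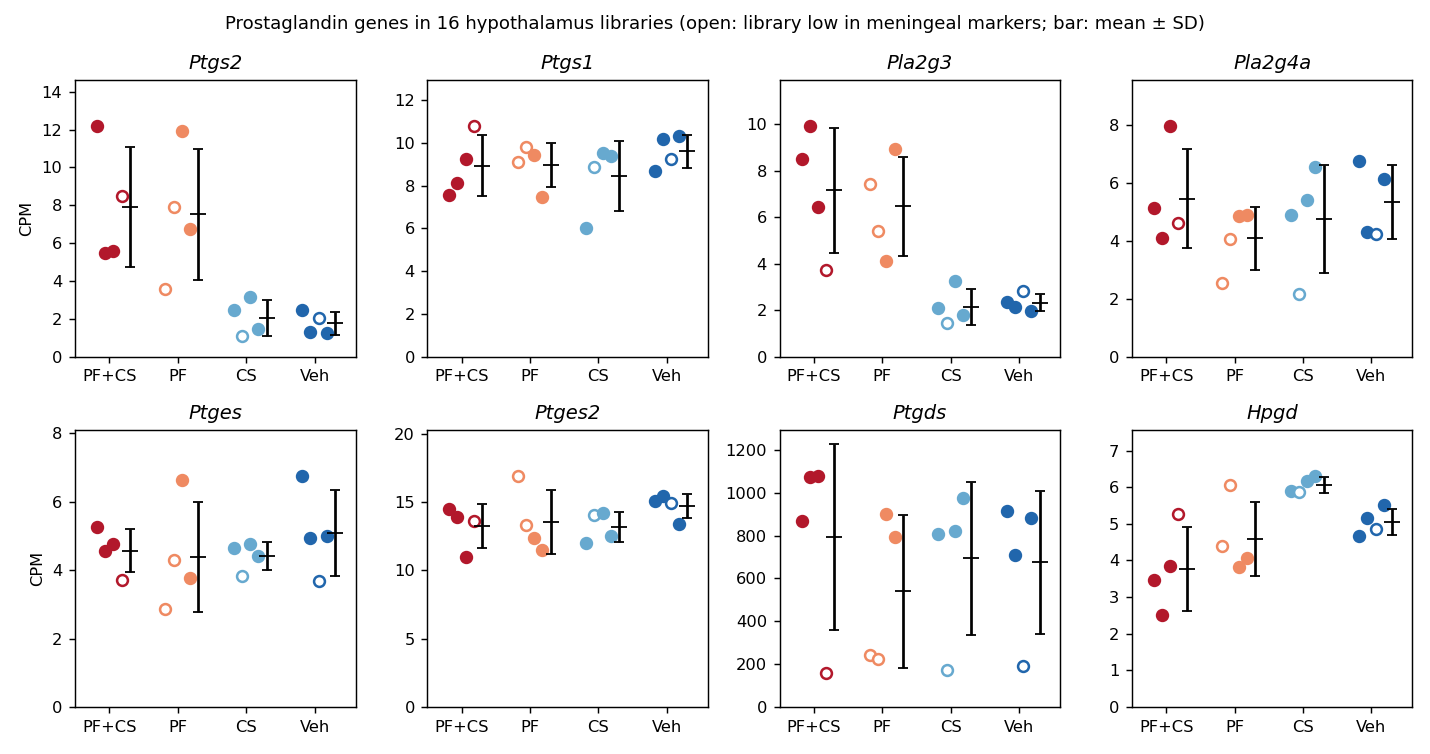
Level of each gene in CPM (vertical axis, from 0) in the 4 libraries of each group, replicates 1 to 4 from left to right, with the mean and SD of 4 as a bar. Ptgs2 and Pla2g3 lie higher in all PF+CS and PF libraries than in any CS or Veh library, Hpgd lies lower in PF+CS than in CS, and Ptgds is low in the 5 open symbols, the libraries low in meningeal markers.

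Of the phospholipases, Pla2g3 stood higher in the rationed libraries, and the groups overlapped for Pla2g4a. Pla2g3 (chr11:3488284-3499350, plus strand, protein-coding), a secreted phospholipase, was measured at 8.52, 9.93, 6.46 and 3.73 CPM in PF+CS and at 7.43, 5.39, 4.12 and 8.94 CPM in PF. With free food the values were 2.09, 1.44, 3.23 and 1.79 CPM in CS and 2.34, 2.15, 2.82 and 1.98 CPM in Veh. Here too every rationed library lay above every freely fed one, by the narrowest margin for PF+CS 4 over CS 3. The log2 ration difference was 1.60 (SE 0.22), 3.04-fold, with 1.73 (SE 0.31) in PF+CS over CS and 1.48 (SE 0.31) in PF over Veh.

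Pla2g3 shares 4976 bases with Inpp5j (chr11:3494375-3504821, minus strand, protein-coding), a phosphatase of inositol phosphates. The strand of the counting is not given in the sources used here, so reads of the 2 genes in the shared stretch may not be separable. Inpp5j was measured at 30.9 ± 3.05 CPM in PF+CS, 27.4 ± 2.08 CPM in PF, 25.5 ± 1.70 CPM in CS and 23.4 ± 1.61 CPM in Veh (SD, n = 4 each), and rose with the ration by 0.25 on the log2 scale (SE 0.06, edgeR adjusted p = 0.00373). The level of Pla2g3 is uncertain on this account.

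Pla2g4a (chr1:149829618-149961290, minus strand, protein-coding), the cytosolic phospholipase that responds to calcium, lies 138740 bases from Ptgs2. It was measured at 5.15, 4.11, 7.98 and 4.63 CPM in PF+CS and at 2.53, 4.07, 4.86 and 4.88 CPM in PF. In CS libraries it had 4.91, 2.16, 5.42 and 6.56 CPM, and in Veh libraries 6.75, 4.29, 4.24 and 6.14 CPM. The groups overlapped, and the log2 ration difference was 0.19 (SE 0.28) in PF+CS over CS and -0.33 (SE 0.30) in PF over Veh, opposite in sign. The FPKM ratio of Pla2g3 to Pla2g4a was 0.774 to 2.22 in PF+CS and 0.896 to 2.65 in PF, against 0.205 to 0.557 in CS and 0.298 to 0.766 in Veh. The secreted enzyme was the lower of the 2 in all freely fed libraries and the higher in 5 of 8 rationed ones.

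Against the background of all tested genes, 165 of 14775 (1.12%) had no overlap between the 8 rationed and the 8 freely fed libraries. Ptgs2 and Pla2g3 were the 2 of 8 genes here without overlap, and since the ration chose them the share is not read as a result. In PF+CS against CS, 10.1% of tested genes had no overlap, and in PF against Veh 8.26%. The median log2 ration difference of the 8 genes was -0.06, against 0.0007 for all tested genes, and the 6 genes other than Ptgs2 and Pla2g3 had values of -0.41 to -0.03.

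The terminal synthases split by abundance. Ptges2 (chr2:32395896-32405772, plus strand, protein-coding), a membrane-bound prostaglandin E synthase, was measured at 14.5, 13.9, 10.9 and 13.6 CPM in PF+CS and at 16.9, 13.3, 12.4 and 11.5 CPM in PF. Free-fed libraries had 12.02, 14.02, 14.2 and 12.5 CPM in CS and 15.1, 15.5, 14.9 and 13.4 CPM in Veh. These groups overlapped, and the highest value over all 16 libraries was 1.54 times the lowest. Its ration difference was -0.07 (SE 0.08).

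Ptges (chr2:30889471-30929863, minus strand, protein-coding), the inducible prostaglandin E synthase that is commonly coupled to Ptgs2, was measured at 5.26, 4.57, 4.75 and 3.73 CPM in PF+CS and at 2.87, 4.29, 6.63 and 3.78 CPM in PF. Levels were 4.66, 3.83, 4.75 and 4.43 CPM in CS and 6.75, 4.94, 3.69 and 4.99 CPM in Veh. The groups overlapped, and the ration difference was -0.07 (SE 0.14). Whether the 2 genes differ in their ration difference was not tested.

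Ptgds (chr2:25466709-25470046, minus strand, protein-coding), the lipocalin-type prostaglandin D synthase, was by far the most abundant of the 8. It was measured at 867, 1073, 1077 and 158 CPM in PF+CS and at 240, 224, 900 and 793 CPM in PF. With free food the values were 807, 172, 820 and 977 CPM in CS and 915, 712, 192 and 881 CPM in Veh. Each group had 1 low library except PF, which had 2.

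The 5 low values of Ptgds fell in exactly the 5 libraries low in meningeal fibroblast markers. These libraries were also the lowest in summed markers of perivascular macrophages, at 7.58 to 12.2 CPM against 13.4 to 33.4 CPM in the other 11, and of choroid plexus, at 38.7 to 44.4 CPM against 44.6 to 58.3 CPM. The part of each in the Ptgds values was not tested. Ptgds ran from 158 to 240 CPM in the 5, with a median of 192 CPM, against 712 to 1077 CPM and a median of 881 CPM in the other 11 libraries. Because the libraries form 2 separate sets, no correlation of Ptgds with the marker level is given over all 16. Ptges and Pla2g4a also had lower medians in the 5 libraries, 3.73 against 4.75 CPM and 4.07 against 5.15 CPM, with overlap, and the remaining 5 genes had a ratio of medians (other 11 over the 5) between 0.867 and 0.998. Without the 5 libraries Ptgds averaged 1006 ± 120 CPM in PF+CS (SD, n = 3), 846.5 ± 75.9 CPM in PF (n = 2), 868 ± 94.7 CPM in CS (n = 3) and 836 ± 109 CPM in Veh (n = 3). Leaving them out turned the Ptgds ration difference in PF over Veh to 0.02, against -0.31 (SE 0.72) with all libraries. With the meningeal marker level as a covariate it was 0.46, and over both arms 0.36 against -0.06 without the covariate.

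**Figure D2:**
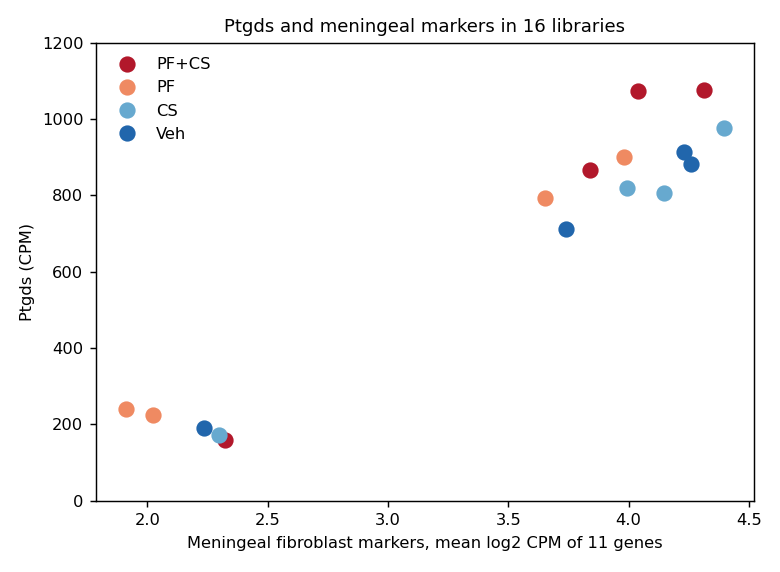
Ptgds in CPM (vertical axis) against the mean log2 CPM of 11 meningeal fibroblast markers (horizontal axis), 1 point per library, coloured by group. The 5 libraries at the lower left lie between 158 and 240 CPM and come from all 4 groups, and the other 11 lie between 712 and 1077 CPM.

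Hpgd (chr8:56294585-56321043, plus strand, protein-coding), the dehydrogenase that starts the inactivation of prostaglandins, was lower in PF+CS than in CS. It was measured at 3.47, 2.51, 3.86 and 5.27 CPM in PF+CS and at 4.39, 6.05, 3.83 and 4.05 CPM in PF. In CS libraries it had 5.89, 5.87, 6.18 and 6.30 CPM, and in Veh libraries 4.67, 5.15, 4.86 and 5.51 CPM. PF+CS and CS did not overlap, whereas PF and Veh did, with PF 2 above every Veh library. It averaged 3.78 ± 1.14 CPM in PF+CS and 6.06 ± 0.214 CPM in CS, the group with the smallest spread (SD, n = 4 each).

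The log2 ration difference of Hpgd was -0.41 (SE 0.13) over both arms, -0.70 (SE 0.18) in PF+CS over CS and -0.13 (SE 0.18) in PF over Veh. Without the 5 libraries low in meningeal markers these were -0.63, -0.88 and -0.37. Leaving out PF 2 alone gave -0.31 in PF over Veh, and leaving out PF 4 alone gave -0.06. The FPKM ratio of Ptgs2 to Hpgd, the making enzyme over the degrading one, was 0.537 to 1.196 in PF+CS and 0.309 to 1.36 in PF, against 0.0685 to 0.205 in CS and 0.0817 to 0.231 in Veh. The rationed and freely fed ranges of this ratio did not overlap. Ptgs2 alone lay apart in FPKM in the same way, and both genes were known to change with the ration. The separation of the ratio is therefore not read as a result.

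**Figure D3:**
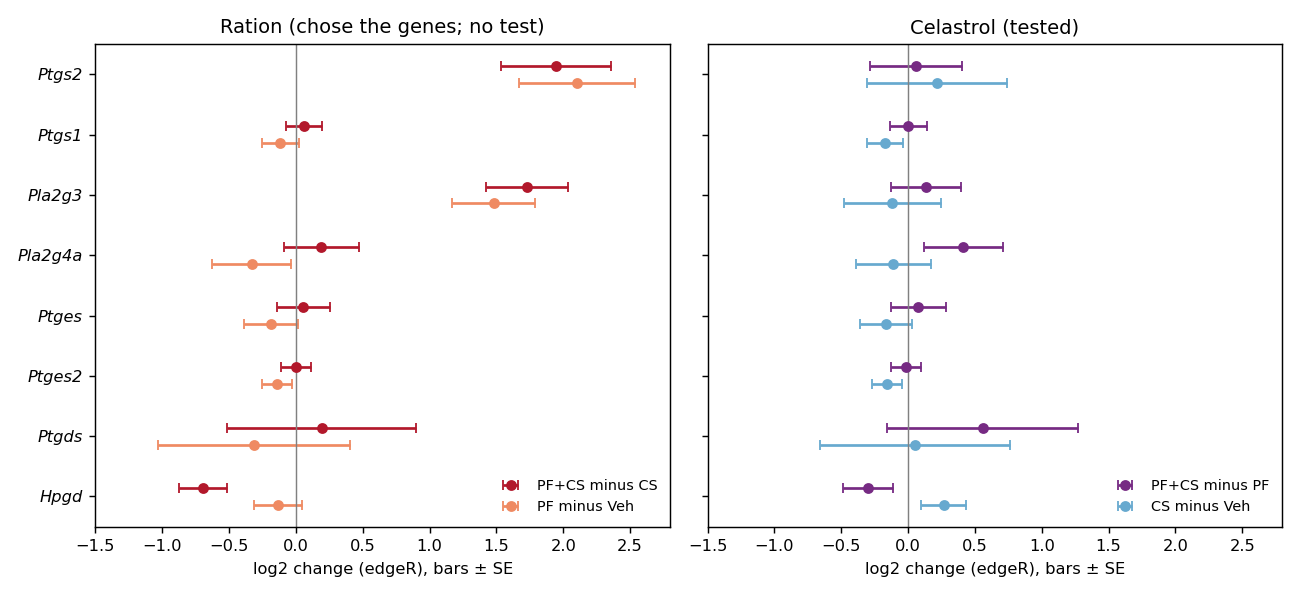
Log2 change of each gene from the edgeR fit (horizontal axis, bars ± SE), for the ration at left (PF+CS minus CS, PF minus Veh) and for celastrol at right (PF+CS minus PF, CS minus Veh). Ptgs2 and Pla2g3 lie between 1.48 and 2.10 for the ration and between -0.12 and 0.22 for celastrol.

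Celastrol was tested in the fit over all genes. None of the 8 genes was called at an adjusted p of at most 0.05 for celastrol over both feeding arms, where 2.59% of all tested genes were called, and their log2 changes ran from -0.09 to 0.30 (adjusted p 0.669 to 0.996). None was called in PF+CS minus PF, where 0.0948% of all genes were, or in CS minus Veh, where 0.893% were. By unadjusted p no gene of the 8 was under 0.05 in these 3 comparisons. DESeq2 called none, but gave an adjusted p to only 2 of the 8 over both arms and to 1 in each of the other two.

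The intervals show what the data allow. For Ptgs2 the celastrol change over both arms was 0.14 (95% interval -0.54 to 0.81) and for Pla2g3 0.01 (-0.49 to 0.50). Ptgs1 changed by -0.09 (-0.29 to 0.11), Ptges2 by -0.09 (-0.25 to 0.08) and Hpgd by -0.02 (-0.27 to 0.24). For Ptgs1, Ptges2 and Hpgd a change beyond about 0.3 thus lies outside the interval. For Ptgds, with 5 low libraries in the fit, the interval ran from -0.79 to 1.399 around 0.30, and the direction turned to -0.20 with the meningeal marker level as a covariate (PF+CS minus PF to -0.29, against 0.56 without it). Pla2g4a had 0.15 (-0.28 to 0.58) and Ptges -0.05 (-0.33 to 0.24).

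For Hpgd the celastrol values of the feeding arms had opposite signs. It was higher in CS than in Veh without overlap, by 0.26 (SE 0.17, edgeR adjusted p = 0.50), in a comparison where 8.94% of all genes had no overlap. In PF+CS minus PF it was -0.30 (SE 0.19, adjusted p = 0.74). The interaction, celastrol's change in rationed mice less its change in freely fed mice, was -0.56 (SE 0.25, 95% interval -1.08 to -0.05, unadjusted p = 0.0328, adjusted p = 0.913) and was not called. The ration change by which Hpgd was known was larger in PF+CS over CS than in PF over Veh. Its interaction and its CS minus Veh value may therefore not be free of the choice. The other 7 genes had interactions of -0.15 to 0.52 (adjusted p 0.922 to 0.992). Of all genes 0 (0%) were called in the interaction by edgeR and 0 by DESeq2, with 741 and 480 at an unadjusted p under 0.05.

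The levels per transcript length ordered the genes. The median over 16 libraries was 375 FPKM for Ptgds, 2.17 for Ptges2, 1.04 for Ptgs1, 0.967 for Hpgd, 0.525 for Pla2g4a, 0.470 for Ptges, 0.371 for Pla2g3 and 0.267 for Ptgs2. Ptgds stood above Ptges2, and Ptges2 above Ptgs1, in all 16 libraries without overlap of their ranges. From Ptgs1 down, neighbours in the order overlapped, and Ptgs1 exceeded Hpgd in 10 of 16 libraries. In PF+CS the order of the means was different, with Pla2g3 at 0.726 ± 0.260 FPKM in the fourth place and Ptgs2 at 0.567 ± 0.235 FPKM above Ptges at 0.465 ± 0.0453 FPKM (SD, n = 4 each).

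**Figure D4:**
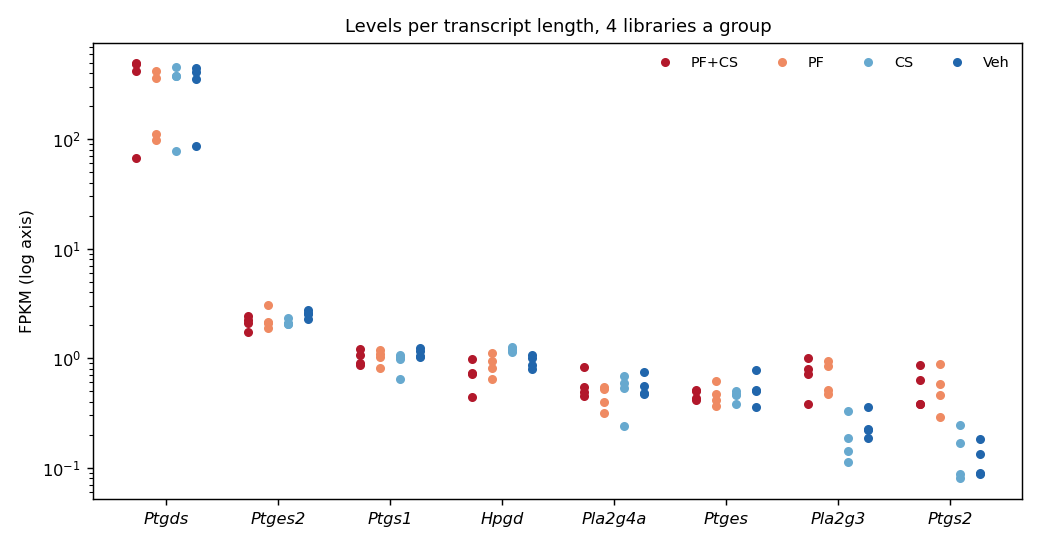
FPKM of each gene (vertical log axis) in every library, 4 points per group and gene, genes ordered by their median. Ptgds lies between 67.8 and 491 FPKM, above all others, and Ptgs2 and Pla2g3 are the genes whose rationed and freely fed libraries lie apart.

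The wider pathway was read from 72 other genes of 6 lists, of which 47 could be tested. With the ration 5 rose and 3 fell, 17.0% of those tested, against 11.4% of all tested genes called (6.92% higher and 4.52% lower, or 1023 and 668 genes). By limma on FPKM the balance turned, with 387 genes higher and 466 lower at a pseudocount of 0.1. The median log2 change over the 47 was -0.01, against 0.0007 for all genes. None of the 47 was called in the 4 other comparisons. The lists and the 8 genes were chosen with results of these libraries known.

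Among phospholipases and other enzymes of arachidonate release, 1 of 12 fell and 0 rose with the ration. Pla2g4e, known to make precursors of lipid amides, fell by 0.44 on the log2 scale (SE 0.10, edgeR adjusted p = 0.00372). It averaged 8.65 ± 1.42 CPM in PF+CS and 8.66 ± 2.40 CPM in PF, against 12.4 ± 0.940 CPM in CS and 11.1 ± 1.22 CPM in Veh (SD, n = 4 each). The abundant members Pla2g7, which inactivates platelet-activating factor, and Dagla, which makes an endocannabinoid, had ration values of 0.01 and -0.08 and were not called.

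Among the other prostanoid synthases, 1 of 7 rose and 1 fell. Ptges3, a co-chaperone of Hsp90 also described as a cytosolic prostaglandin E synthase, rose by 0.13 (SE 0.04, adjusted p = 0.0184), a call lost without PF 4 (adjusted p = 0.0764). Hpgds, the haematopoietic prostaglandin D synthase known from microglia, fell by 0.30 (SE 0.09, adjusted p = 0.0334). It averaged 8.24 ± 1.35 CPM in PF+CS and 7.20 ± 0.770 CPM in PF, against 9.57 ± 1.41 CPM in CS and 9.36 ± 0.685 CPM in Veh (SD, n = 4 each). The Hpgds call ended in 9 of 24 alternatives, including DESeq2 (adjusted p = 0.0718) and the omission of Veh 1, Veh 3, PF 1, PF 4, CS 4, PF+CS 1 or PF+CS 2 (0.0518 to 0.107). The microglial markers given above were lower in the same groups, and their part was not tested. Cbr1, a carbonyl reductase that acts on prostaglandins, had -0.07 and was not called.

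Of 7 genes of transport and breakdown, Slco3a1, an organic anion transporter that carries prostaglandins, rose by 0.15 (SE 0.04, adjusted p = 0.00973) and none fell. Ptgr2, a reductase of prostaglandin metabolites, had -0.10. Of 6 tested receptor genes, Ptgfrn rose by 0.35 (SE 0.08, adjusted p = 0.0044). Ptgfrn is not a receptor but a membrane protein described as a regulator of the prostaglandin F receptor. It averaged 33.0 ± 4.16 CPM in PF+CS and 27.9 ± 4.13 CPM in PF, against 24.9 ± 0.565 CPM in CS and 22.8 ± 3.22 CPM in Veh (SD, n = 4 each). Ptger4, a receptor for prostaglandin E, had 0.01, at a mean of 2.46 to 2.88 CPM per group. Ptger1, Ptgdr2, Ptgir and Tbxa2r were too low to test, with 14 to 74 counts over all libraries.

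In the lipoxygenase and leukotriene branch 1 of 7 tested genes rose. Cysltr1, a receptor for cysteinyl leukotrienes, rose by 0.65 (SE 0.21, adjusted p = 0.0411) at 6 to 23 counts per library. The Cysltr1 call ended in 16 of 24 alternatives, among them the omission of Veh 1, Veh 3, Veh 4, PF 3, PF 4, CS 2, CS 3, CS 4, PF+CS 1, PF+CS 2 or PF+CS 3 (adjusted p 0.051 to 0.108). Lta4h, the hydrolase that forms leukotriene B, had 0.04 and Mgst3, a microsomal glutathione transferase, -0.12. Among 8 genes of arachidonate handling, Acsl3, which activates long-chain fatty acids, rose by 0.24 (SE 0.04, adjusted p = 0.000141). Fads2, a desaturase on the route to arachidonate, fell by 0.15 (SE 0.04, adjusted p = 0.00744), and Fads1, the desaturase that forms arachidonate itself, had -0.08 and was not called.

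**Figure D5:**
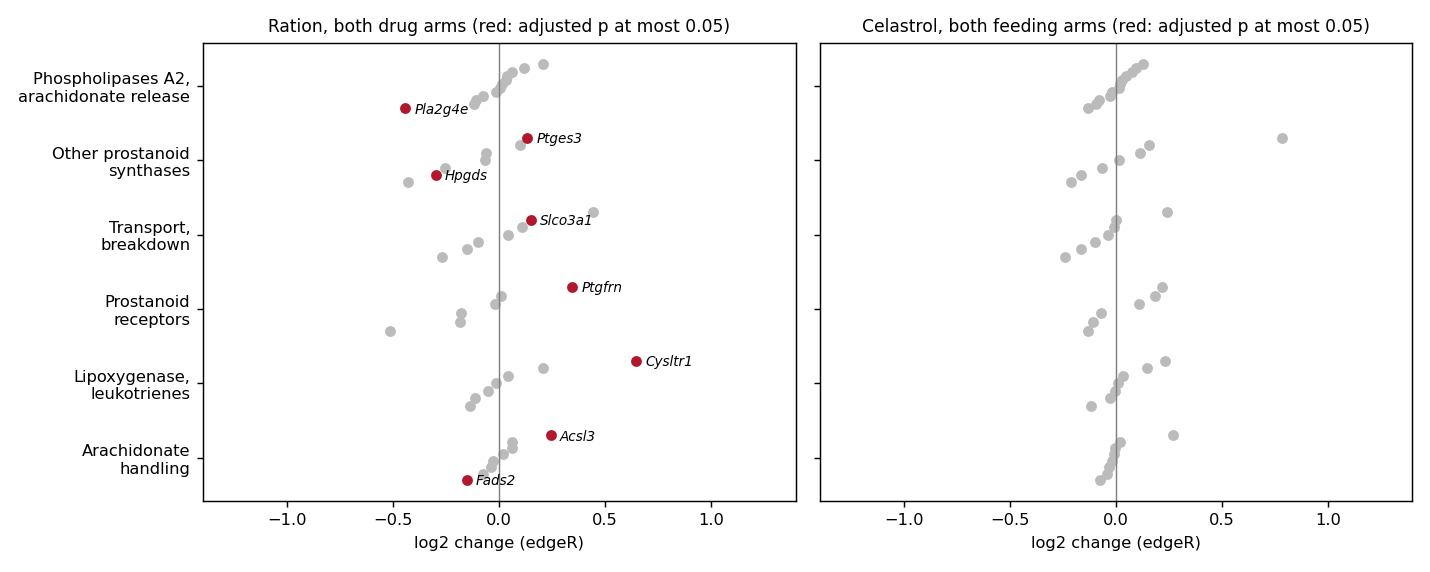
Log2 change (horizontal axis) of the 47 tested pathway genes in 6 lists, for the ration at left and celastrol at right, both from the edgeR fit, with genes called at an adjusted p of at most 0.05 in red. There are 8 red points for the ration, from Pla2g4e at -0.44 to Cysltr1 at 0.65, and none for celastrol.

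Genes whose levels ran most like those of 4 members were listed by Pearson r of log2 CPM over the 16 libraries, among 12957 genes. These libraries share the ration split and the meningeal split, so the values are a description. Ptgs2 ran most like Rasip1 (0.86), Rbm14, Sox11, Cebpd and Ubxn2b (0.84 to 0.85). In this order their ration differences were 0.57 (SE 0.10), 0.17 (SE 0.04), 0.35 (SE 0.04), 2.23 (SE 0.21) and 0.15 (SE 0.04). Cebpd is a C/EBP transcription factor, and its part in the Ptgs2 values was not tested. Pla2g3 ran most like Pdk4 (0.97), a kinase that restrains pyruvate oxidation, with a ration difference of 1.36 (SE 0.19), followed by Dok3, Bcl2l1, Fam107a and Mat2a (0.95 to 0.96). Hpgd ran most like Slitrk2 (0.91), Slco1c1, Nr3c1, Gcnt4 and Phf21b (0.85 to 0.88), of which Slco1c1, a thyroid hormone transporter of brain endothelium, had -0.42 (SE 0.10) and Nr3c1, the glucocorticoid receptor, -0.14 (SE 0.03). Ptgds ran most like Prg4, Itih2, Islr, Kcnj13 and Fmod (all 0.98), each of which was lower in all 5 libraries low in meningeal markers than in any of the other 11.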

How the data were processed

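Libraries of total RNA were prepared with a SMARTer kit for mRNA, per the labels' protocols. The deposited data are gene counts in whole numbers and a second table of the same 16 libraries, taken here as FPKM because its fractional values fall with gene length although it is named as counts. For 5 comparisons the authors also deposited a baseMean (a unit other than counts), log2 fold changes with their standard errors, a Wald statistic (a score) and p-values. The genome build was GRCm38, per the submitters' processing notes. The authors' aligner, counter and strand setting were not given in the sources used here. Positions came from GENCODE M21 of the same build. Promoters came from RefSeq (GRCm38.p6), which gave one for 7 of 8 genes.

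The main test was the robust quasi-likelihood test of edgeR 4.0.16 in R 4.3.3, on 1 fit of the 16 libraries with a mean per group and TMM scaling. A filter (filterByExpr, minimum count 10) kept 14775 of 24047 genes, all 8 members among them. Log2 changes and Benjamini-Hochberg adjusted p come from that fit. The SE was derived from it, as the size of the log2 change divided by the square root of the F statistic. The 95% intervals were built from this SE with a t quantile. Such an SE may be off for a change very near 0. A gene was called at an adjusted p of at most 0.05. CPM use TMM-scaled library sizes. Names turned into dates (27) were never named. On counts simulated for 14775 genes, the test of celastrol over both arms called 85 of 100 genes given a 1.5-fold change, 97 of 100 given a 2-fold change and 9 unchanged ones. The interaction test called 63, 78 and 10. The changed genes were drawn at random from those with an expected count of at least 10, and many were changed at once. These shares are therefore not the power for the 8 genes. For Ptgs2 the SE was 0.31 for celastrol over both arms and 0.62 for the interaction. Replicates of a group differed by more than sampling noise (chi-square per gene 1.63 to 6.59), so none was the same library sequenced again. This check cannot tell separate mice from repeat preparations of the same tissue. Columns of no sample numbered 0.

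The 8 genes, the pathway lists and the marker lists were chosen with earlier results of these data known. All 8 were named; of the lists, every called gene and the 2 with the highest mean CPM of each; and per likeness the 5 with the highest r. One gene under this rule is not reported here. Alternatives were DESeq2 1.42.0, RLE scaling, no filter, a replicate block, each library left out, the 5 libraries low in meningeal markers left out, the marker level as covariate, the 2 groups alone, and limma 3.58.1 on log2(FPKM + 0.1) or log2(FPKM + 1).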

Additional observations from a re-analysis of the deposited data

Results flagged for a closer look

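Of 100 groups of 4 libraries examined for the members and the named pathway genes, 3 held a library far from the other 3 by Dixon's test, where chance gives about 1 in 20. Ptger4, a prostaglandin E receptor, was 4.29 CPM in PF 2 against 2.21 to 2.53 CPM in the other PF libraries. Mgst3 was 10.7 CPM in CS 2 against 13.2 to 13.3 CPM in the other CS libraries. Fads2 was 117 CPM in Veh 1 against 106 to 107 CPM in the other Veh libraries.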

How the results depend on the processing

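Of 784 alternative values of the 8 genes for celastrol and the interaction, 764 had an adjusted p and none of these was called, while DESeq2 gave none for 20. Of the 784, 63 changed sign. The interaction of Hpgd was -0.55 with the replicate block, where that of Ptgds was 0.79, and -0.51 without the 5 libraries, where that of Ptgs2 was -0.72. Ration values moved by over 1 SD in 8 of 576, all in tests of FPKM, whose pseudocounts shrink low genes (the Ptgs2 value over both arms was 0.45 with a pseudocount of 1).

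Genes called numbered 383 for celastrol over both arms, and 227 and 209 by limma on FPKM with a pseudocount of 0.1 and 1 (21 and 20 higher, against 169 in the edgeR test) and 160 without the 5 libraries low in meningeal markers. In CS minus Veh 132 were called (45 higher and 87 lower, and 49 and 61 with RLE scaling), against 305 by DESeq2, 20 and 12 by limma, 210 with the covariate, 257 with the 2 groups alone and 342 without the 5 libraries. In PF+CS minus PF 14 were called, against 32 by DESeq2, 0 and 0 by limma (1316 and 1308 at an unadjusted p under 0.05), 7 with the 2 groups alone and 0 without the 5 libraries (781 unadjusted). For the ration 1691 were called, and 853 and 873 by limma (387 higher and 466 lower, and 390 and 483, against 1023 and 668 by edgeR). Leaving out 1 library gave 138 (CS 4) to 465 (PF 4) for celastrol, 10 (CS 4) to 242 (Veh 3) for CS minus Veh, 1 (PF 2) to 24 (PF 4) for PF+CS minus PF, 1091 (PF 4) to 2108 (PF+CS 4) for the ration and 0 to 0 for the interaction. The cause of these moves was not tested.

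No pairing of the samples by replicate number was seen. Of 24 same-numbered pairs 5 had a correlation of deviations over 0.1 (range -0.42 to 0.33), and 1 of 16 libraries matched best with its own number. The split in meningeal markers is part of these deviations, so a weaker pairing could be hidden. With the replicate block 335, 0, 99, 13 and 1472 genes were called for celastrol, the interaction, CS minus Veh, PF+CS minus PF and the ration, and Cysltr1 lost its call (adjusted p = 0.0614).

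Of the 8 pathway calls, Pla2g4e, Ptgfrn and Acsl3 were called in all 24 alternatives. Slco3a1 lost its call in both FPKM tests (adjusted p = 0.278 and 0.279), as did Fads2 (0.053 and 0.0542) and Ptges3 (0.154 and 0.156). Counts of Ptgs2 were 9 to 116 per library, which limits its precision.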
